A study of Mus musculus x Rattus norvegicus with 2 samples.

Results

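The 10 genes described here control the decision of a cell in G1 to copy its DNA or to leave the cycle. They were chosen by symbol in the mouse and rat features of the count tables, and each symbol was found once in each species: the D-type cyclins Ccnd1, Ccnd2 and Ccnd3, their kinases Cdk4 and Cdk6, the transcription factors Myc and Mycn, and the inhibitors Cdkn1a (p21), Cdkn1b (p27) and Cdkn2c (p18). These are 10 of 55403 mouse features and 10 of 25399 rat features. Lungs came from E20.5 chimeric embryos made of mouse (C57BL/6) and rat (SD) cells. The mutant library was prepared from the mouse lung that had formed in an Nkx2-1-/- rat host, and the control library from a lung of mixed mouse and rat cells in a wild-type rat host. Each group had a single library (1 mutant and 1 control). No difference therefore has a replicate check, no p-value is given, and host genotype, embryo, dissociation and library preparation cannot be told apart. The number of embryos behind each library is not stated in the labels.

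In G1, growth signals raise the D-type cyclins, which bind the kinases Cdk4 and Cdk6. The active pairs phosphorylate the retinoblastoma protein and its relatives, which frees E2F factors to switch on the genes of S phase. Proteins of the Ink4 family, Cdkn2c among them, block Cdk4 and Cdk6 directly, and Cdkn1a and Cdkn1b bind cyclin and kinase pairs, Cdkn1a as a target of p53. Myc drives growth and ribosome making, and Mycn is its relative in embryonic tissue, known in the tips of the developing lung epithelium. Mki67 and Top2a are transcribed mainly from S phase to M phase, and a UMI of either stands in here for a cycling cell.

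The D-type cyclins share a short motif near the start of the protein, LxCxE, through which they touch the retinoblastoma protein. The 45 first coding bases of the mouse genes are shown because all 3 genes carry the motif there, with its codons in capitals, 5′ to 3′ on the coding strand, taken from mm10 with GENCODE vM21 gene models. Ccnd1 lies on the minus strand at chr7:144939649-144939693, Ccnd2 on the minus strand at chr6:127150729-127150773, and Ccnd3 on the plus strand at chr17:47593655-47593699, all in coding exons.
Ccnd1: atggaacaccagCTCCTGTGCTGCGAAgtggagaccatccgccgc
Ccnd2: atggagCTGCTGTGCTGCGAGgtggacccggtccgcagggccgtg
Ccnd3: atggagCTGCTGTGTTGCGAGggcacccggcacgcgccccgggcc
The motif begins at codon 5 in Ccnd1 and at codon 3 in Ccnd2 and Ccnd3, and occurs once in each of these coding sequences, which have 295, 289 and 292 codons for Ccnd1, Ccnd2 and Ccnd3.

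The mutant library had 103627303 UMIs (unique molecular identifiers, 1 per captured RNA molecule) in 10918 barcodes and the control library 123047433 in 11129. After filters, 8498 mouse and 79 rat cells of the mutant library and 7260 mouse and 725 rat cells of the control library were used, and 47 barcodes occurred in both libraries, 27 of them among the kept ones. Mouse cells were clustered without the 10 genes and without the pathway genes described further on, and classes and types, written with the ending "-like", were named from marker RNA alone. Clusters of few UMIs (medians of 1572.5 to 1641.5 UMIs) lay in all 3 large classes: an unnamed endothelial one of 161 mutant and 725 control cells, an Alveolar fibroblast-like one of 349 and 453, and an AT1-like one of 254 and 282. Most clusters were mostly of 1 library, so a type of the same name in both is not shown to be the same cells. Rat Nkx2-1, which the mutant hosts lack, had 1 UMI over all 10918 mutant barcodes and 5103 UMIs over all 11129 control barcodes, and mouse Nkx2-1 was at 321 CPM in mutant and 495 CPM in control epithelial cells. The matrices came from different Cell Ranger versions, and log2 differences followed intron length: in epithelial cells their median was -0.56 over genes with 2 to 10 kb of intron and 1.31 over genes with more than 200 kb. Of the 10 genes, Cdk6 and Ccnd3 have the longest introns (176 and 85.9 kb), and the others have 17.6 kb or less. For the 10 genes in the 3 large mouse classes, each log2 difference is therefore also given after subtracting the median of genes with similar intron length, called the intron-adjusted difference. Differences by cell type, between cells with and without a cycling marker, and between or within rat cells are not adjusted. UMIs of the other species were seen in kept cells: 17.4% of control rat cells carried a mouse Cdk4 UMI and 3.72% a mouse Ccnd1 UMI. At most 0.923% of control mouse cells carried a rat UMI of any 1 of the 10 genes. In mutant rat cells the highest such share was 11.4%, of mouse Cdkn1b, and in mutant mouse cells 0.118%, of rat Ccnd1. The source of these UMIs was not tested.

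A smaller share of mouse cells carried a UMI of Mki67 or Top2a in the mutant library, in each of the epithelial, endothelial, mesenchymal and immune classes. The share was 14.2% of 2127 mutant epithelial cells and 64.2% of 1200 control epithelial cells, with exact 95% intervals of 12.7 to 15.7 and 61.4 to 66.9. It was 34.0% of 1958 mutant and 54.5% of 1626 control endothelial cells, and 15.4% of 4261 mutant and 48.9% of 4180 control mesenchymal cells. By summed level, endothelial Top2a was nearly even, at 378 CPM in the mutant and 427 CPM in the control library. Endothelial Mki67 was at 211 and 348 CPM. In epithelial cells Top2a was at 25.2 and 273 CPM in mutant and control, and Mki67 at 9.29 and 235 CPM. Since deeper cells show a UMI more easily, each cell was also thinned to 2000 UMIs, which left out 245 mutant and 194 control epithelial cells. It also left out 144 mutant and 517 control endothelial cells, and 358 mutant and 400 control mesenchymal cells. The thinned shares were 3.40% in mutant and 41.8% in control epithelial cells, 22.6% in mutant and 46.3% in control endothelial cells, and 5.25% in mutant and 31.8% in control mesenchymal cells. Among mutant classes the endothelial share was the highest of the 3 on both counts. The 2 markers did not always go together: of 72 mutant Ciliated-like cells 62.5% carried a Top2a and 13.9% an Mki67 UMI. These cells gave 47 of the 301 mutant epithelial cells with a UMI of the pair, and 15 of 64 after thinning. Whether Ciliated-like cells with such a UMI were cycling was not tested. Rat mesenchymal cells, of which 63 of 73 were Pericyte-like in the mutant and 86 of 393 in the control library, gave 34.2% of 73 mutant and 35.4% of 393 control cells, and control rat epithelial cells 62.7% of 233. Thinned, the rat mesenchymal shares were 26.4% in mutant and 20.2% in control cells, in the other direction, and the control rat epithelial share was 33.9%. Mouse immune cells gave 34.8% in the mutant and 64.5% in the control library. All intervals cover counting error only.

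**Figure D1:**
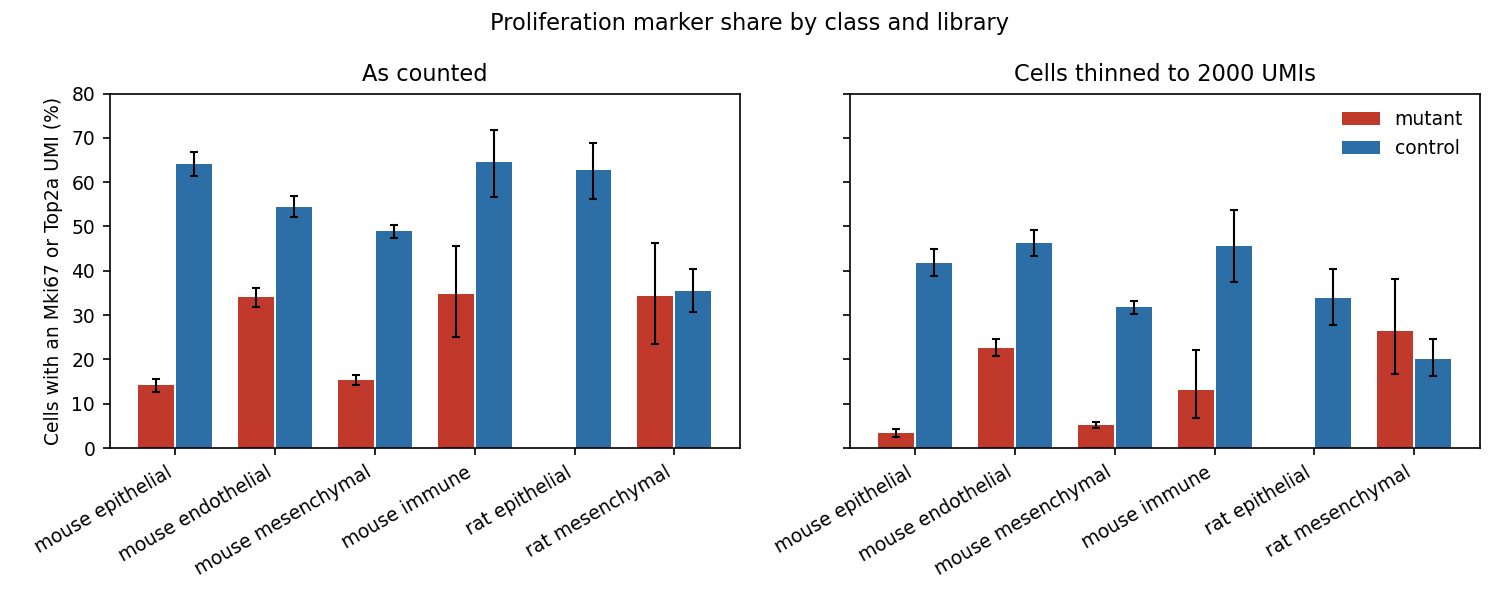
Percent of cells with at least 1 UMI of Mki67 or Top2a by species, class and library, as counted (left) and after thinning each cell to 2000 UMIs (right); bars are shares, whiskers exact 95% binomial intervals, red mutant and blue control. The mutant bar is the lower in each of the 4 mouse classes on both panels, most in epithelial cells (14.2% against 64.2% as counted), and rat epithelial cells occur only in the control library.

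Of the 10 genes, Cdk4 was lower in the mutant library in all 3 large mouse classes, Ccnd1 passed a 2-fold difference downwards in epithelial and mesenchymal cells, and Cdkn1a was on the higher side in all 3. Values are UMIs per 1e+06 mouse UMIs of a class (CPM), and a log2 difference is mutant minus control after adding 10 CPM to each, which understates the change of low genes. In epithelial cells 0 of 10 genes were at least 2-fold higher and 3 at least 2-fold lower (Cdk4, Ccnd1 and Ccnd2), where 12.3% and 11.9% of all 9786 genes tested passed in those directions and 24.2% in either. The median log2 difference was -0.79 over the 10 and -0.17 over all genes tested. In endothelial cells 1 of 9 measured genes was higher (Cdk6) and 2 lower (Cdk4 and Myc), against 10.7% and 3.81% of 9443 genes (14.5% in either direction), with medians of -0.08 and -0.09. In mesenchymal cells 1 of 9 was higher (Cdkn1a) and 2 lower (Cdk4 and Ccnd1), against 10.9% and 5.89% of 9793 genes (16.7% in either direction), with medians of -0.31 and -0.10. Mycn was under 10 CPM in both libraries in endothelial and mesenchymal cells and was not counted there. After intron adjustment, 2 of 10 were higher (Cdkn1a and Cdkn1b) and 3 lower in epithelial cells, where 9% and 6.83% of all genes passed. On that scale 1 was higher (Cdkn1a) and 1 lower (Cdk4) in endothelial cells, where 4.59% and 2.28% passed, and likewise in mesenchymal cells, where 5.89% and 4.28% passed.

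**Figure D2:**
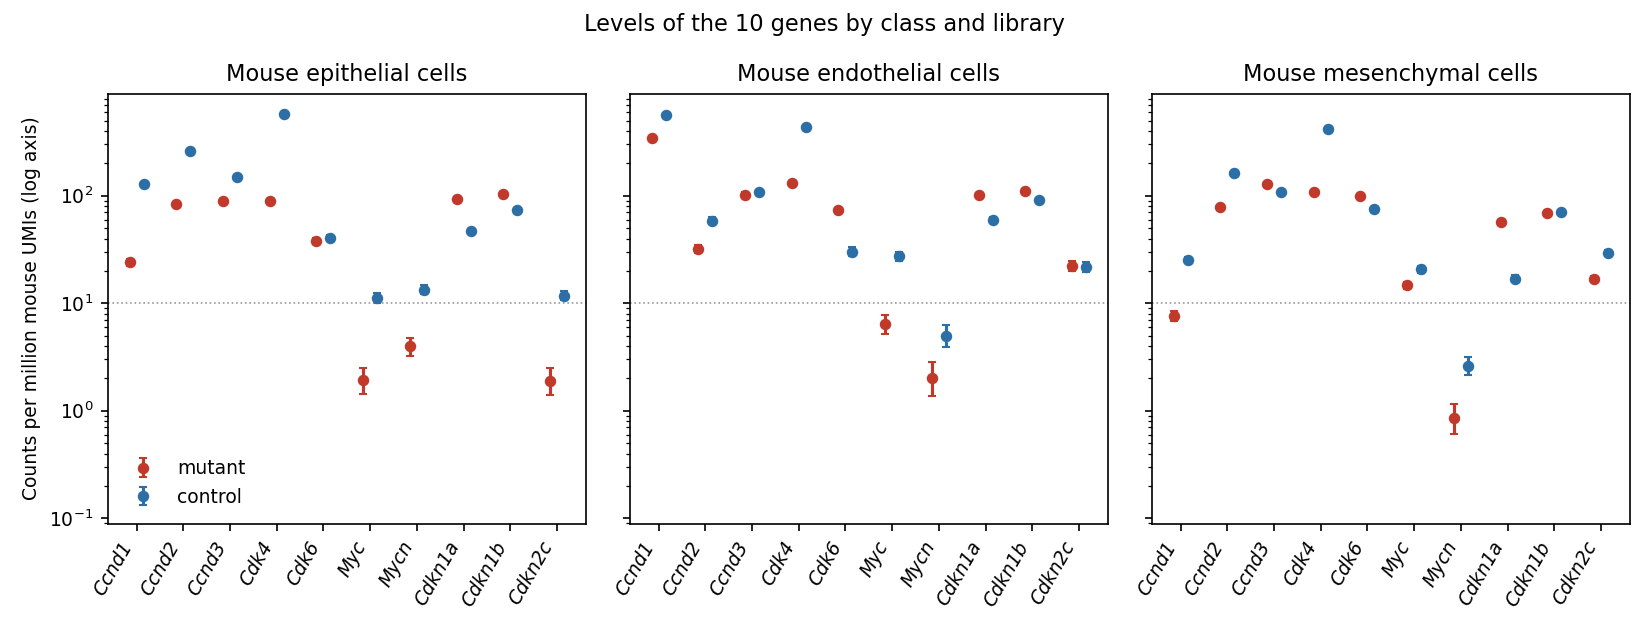
CPM of the 10 genes on a log axis in mouse epithelial, endothelial and mesenchymal cells; points are class sums of 1 library, red mutant and blue control, whiskers exact 95% Poisson intervals, and the dotted line marks 10 CPM. The Cdk4 points are the farthest apart among the genes above 10 CPM in both libraries, 90.1 CPM in mutant and 579 CPM in control epithelial cells.

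Among the D-type cyclins, Ccnd1 was highest in endothelial cells among the 3 classes in both libraries. It had 347 CPM in mutant and 561 CPM in control endothelial cells, a log2 difference of -0.68 (95% counting interval -0.73 to -0.63). In epithelial cells it had 24.1 CPM in the mutant library, from 650 UMIs, and 128 CPM in the control library, from 4302 UMIs, a difference of -2.02 (-2.11 to -1.93). In mesenchymal cells it was low in both, at 7.54 CPM in mutant and 25.2 CPM in control cells, and the difference of -1.004 stood at the 2-fold line. Intron-adjusted, the 3 differences were -0.22, -1.40 and -0.55. After thinning, a Ccnd1 UMI was found in 42.4% of mutant and 55.6% of control endothelial cells, and in 3.51% of mutant and 17.6% of control epithelial cells.

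Ccnd2 was lower in the mutant library in all 3 classes, most in epithelial cells, where it had 84.2 CPM in mutant and 258 CPM in control cells (-1.51, interval -1.57 to -1.45). Mesenchymal cells had 77.8 CPM in the mutant and 163 CPM in the control library (-0.98), and endothelial cells 31.8 and 58.8 CPM in mutant and control (-0.72). Ccnd3 differed less: 89.9 CPM in mutant and 150 CPM in control epithelial cells (-0.68), 102 and 109 CPM in mutant and control endothelial cells (-0.08), and 129 and 108 CPM in mutant and control mesenchymal cells (0.24). Intron-adjusted, Ccnd2 was at -1.11 in epithelial, -0.77 in mesenchymal and -0.46 in endothelial cells. The adjusted values of Ccnd3 were -0.996 (epithelial), -0.57 (endothelial) and -0.077 (mesenchymal), so its mesenchymal direction turned.

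The kinase Cdk4 was more than 2-fold lower in the mutant library in each of the 3 classes, before and after intron adjustment. It had 90.1 CPM in mutant and 579 CPM in control epithelial cells (-2.56, interval -2.61 to -2.50), 132 and 433 CPM in mutant and control endothelial cells (-1.64), and 108 and 417 CPM in mutant and control mesenchymal cells (-1.86). After adjustment these were -2.03, -1.08 and -1.42. A Cdk4 UMI was found in 14.7% of thinned mutant and 61.9% of thinned control epithelial cells. Cdk6, the other kinase of the D-type cyclins, had 37.6 CPM in mutant and 40.7 CPM in control epithelial cells (-0.09), 73.2 and 30.2 CPM in mutant and control endothelial cells (1.05), and 98.7 and 75.6 CPM in mutant and control mesenchymal cells (0.35). Intron-adjusted, these became -0.95, 0.02 and -0.53, so on that scale Cdk6 was lower in epithelial and mesenchymal cells, its mesenchymal direction turned, and its endothelial call was lost.

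Myc and Mycn were low in these mouse classes. Myc had 1.92 CPM in mutant and 11.2 CPM in control epithelial cells (-0.83), 6.37 and 27.4 CPM in mutant and control endothelial cells (-1.19, interval -1.34 to -1.04), and 14.7 and 20.7 CPM in mutant and control mesenchymal cells (-0.31). Intron-adjusted, Myc was at -0.29 (epithelial), -0.75 (endothelial) and 0.14 (mesenchymal), so on that scale its endothelial call was lost and its mesenchymal direction turned. That scale keeps the added 10 CPM, which understates the change of a gene this low. With totals over genes of at most 10 kb of intron instead, Myc was at -1.06 (epithelial), -1.30 (endothelial) and -0.18 (mesenchymal). The endothelial call then stayed and the mesenchymal direction did not turn. Mycn passed 10 CPM in 1 of these classes and 1 library, with 3.96 CPM in mutant and 13.4 CPM in control epithelial cells (-0.75), that is 107 and 451 UMIs in mutant and control, and an adjusted difference of -0.17.

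The 3 inhibitors differed from one another. Cdkn1a, which arrests cells as a target of p53, had 93.4 CPM in mutant and 46.8 CPM in control epithelial cells (0.86, interval 0.79 to 0.94), 102 and 59.6 CPM in mutant and control endothelial cells (0.69), and 57.4 and 16.9 CPM in mutant and control mesenchymal cells (1.32, interval 1.24 to 1.41). Intron-adjusted differences were 1.40, 1.09 and 1.71. Cdkn1b, which holds resting cells out of the cycle, had 104 CPM in mutant and 73.4 CPM in control epithelial cells (0.46), 111 and 91.3 CPM in mutant and control endothelial cells (0.26), and 69.8 and 71.0 CPM in mutant and control mesenchymal cells (-0.02). Its adjusted values were 1.08 (epithelial), 0.80 (endothelial) and 0.46 (mesenchymal), the first past 2-fold. Cdkn2c, the blocker of Cdk4 and Cdk6, had 1.89 CPM in mutant and 11.7 CPM in control epithelial cells (-0.87), 22.3 and 21.7 CPM in mutant and control endothelial cells (0.03), and 16.8 and 29.4 CPM in mutant and control mesenchymal cells (-0.56). Adjusted, it was at -0.25 (epithelial), 0.52 (endothelial) and -0.11 (mesenchymal). With totals over genes of at most 10 kb of intron instead, its epithelial difference was -1.11.

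**Figure D3:**
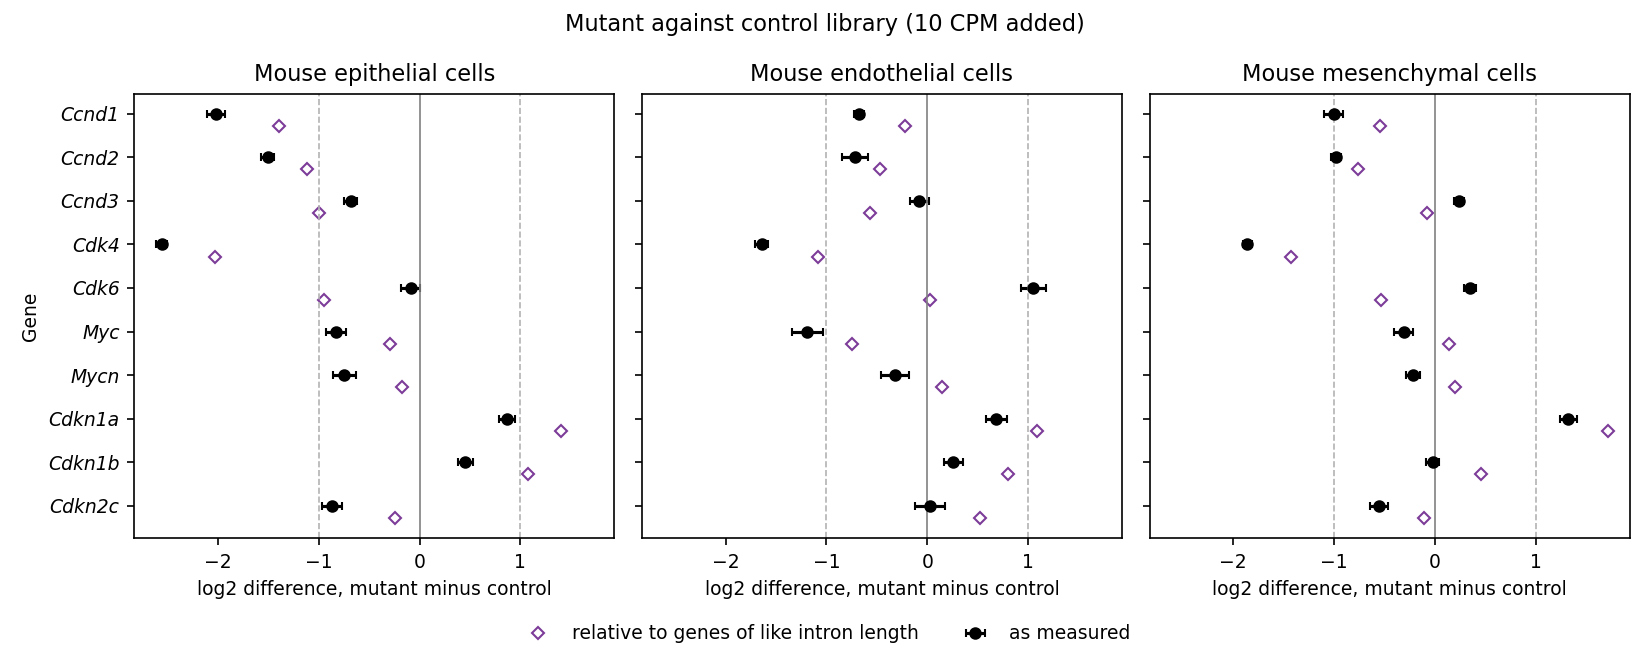
Log2 difference of each gene, mutant minus control with 10 CPM added, in 3 mouse classes; filled points with 95% counting intervals are as measured, open diamonds are intron-adjusted, and dashed lines mark 2-fold. Cdk4 lies left of -1 on both scales in all 3 panels and Cdkn1a right of 0, while Cdk6 and Ccnd3, which have the longest introns of the 10, shift left after adjustment.

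Among cell types, Cdk4 was at least 2-fold lower in the mutant library in 8 of the 8 named types found in both libraries with at least 50 cells each, from -2.87 in AT1-like cells (67.0 CPM in 921 mutant cells and 553 CPM in 387 control cells) to -1.33 in Adventitial-like cells (133 and 348 CPM in mutant and control). AT1 cells form the thin gas-exchange surface and AT2 cells make surfactant. With 10 CPM added, Ccnd1 was lower past 2-fold in 2 of the 8, AT1-like (9.03 and 106 CPM in mutant and control) and AT2-like cells (20.2 and 126 CPM). Its counting interval lay below 0 in 7 of the 8, all but Smooth muscle-like cells (-0.0035). Alveolar fibroblast-like cells had 3.30 CPM in mutant and 15.97 CPM in control (-0.97), and Pericyte-like cells 24.7 and 56.5 CPM (-0.94). The added 10 CPM understates the change at such low levels. In Airway secretory-like cells the Ccnd1 difference was -0.24 (175 and 208 CPM). In the mutant library Ccnd1 spanned 3.30 CPM in Alveolar fibroblast-like cells to 491 CPM in Aerocyte-like cells, the capillary cells of gas exchange, which had no counterpart in the control library.

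Ccnd2 differed from type to type. It was lower in AT1-like (67.9 CPM in mutant and 290 CPM in control, -1.95), Airway secretory-like (374 and 972 CPM, -1.35) and Alveolar fibroblast-like cells (49.0 and 139 CPM, -1.34). In AT2-like cells it had 62.3 CPM in the mutant and 55.0 CPM in the control library (0.16), and in Pericyte-like cells, the mural cells of capillaries, 418 and 408 CPM (0.03). Pericyte-like cells also had the highest Cdk6 of any type, 327 CPM in the mutant and 140 CPM in the control library (1.17), and General capillary-like cells had 85.6 and 31.7 CPM of Cdk6 (1.20). These type differences of Cdk6, a gene with long introns, are not intron-adjusted. Its adjusted class differences were 0.02 in endothelial and -0.53 in mesenchymal cells. The leading genes of the control General capillary-like cluster included the platelet genes Pf4, Ppbp and Gp9, and their part in its values was not tested.

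The size of the pooled mesenchymal Cdkn1a difference depended on 1 type. Myofibroblast-like cells had 193 CPM, the highest of 12 types in the mutant library. They numbered 1012 in the mutant and 1 in the control library, and held 74.4% of the Cdkn1a UMIs of the mutant mesenchymal class with 22.1% of its UMIs. Without them the pooled mesenchymal difference was 0.10, in place of 1.32. The cells left differed in makeup: Smooth muscle-like cells held 2.14% of the mutant and 25.4% of the control mesenchymal UMIs. Each named type left, taken alone, stood above 0.10. Alveolar fibroblast-like cells, the most numerous type, had 12.5 CPM in the mutant and 9.11 CPM in the control library (0.23). Pericyte-like cells had 45.6 and 32.1 CPM (0.40), and Adventitial-like cells 23.9 and 14.9 CPM (0.44). Smooth muscle-like cells had 89.0 and 26.7 CPM (1.43), from 113 mutant and 814 control cells. The control Smooth muscle-like cells were led in part by Fgf18, a marker on the myofibroblast list, and whether the border between these types is the same in both libraries was not tested.

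The epithelial class of the mutant library held 2 sub-clusters led by mesenchymal genes, of 312 and 20 cells, and that of the control library an unnamed one of 215 cells with Col3a1, Mgp and Foxf1 among its leading genes. The epithelium was also read over cells of a named type alone, a choice made after seeing the data. The count of lower genes was again 3, with Cdk4 at -2.59, Ccnd1 at -2.02, Ccnd2 at -1.54 and Cdkn1a at 0.82. The summed level of 12 mesenchymal markers was 241 CPM in mutant and 295 CPM in control epithelial cells, and that of 10 immune markers, Lyz2 of AT2 cells among them, 1755 CPM in mutant and 16.6 CPM in control epithelial cells. The 8 red cell markers summed to 149 and 683 CPM in mutant and control epithelial cells, 649 and 2790 CPM in endothelial cells, and 239 and 963 CPM in mesenchymal cells. Their part in the differences was not tested.

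Within the epithelium, Cdkn1a was higher by a like amount in AT1-like cells (99.4 CPM in mutant and 32.2 CPM in control, 1.37) and AT2-like cells (89.2 and 28.1 CPM, 1.38), above the whole-class value of 0.86. Airway secretory-like cells went the other way, with 67.7 and 102 CPM in mutant and control (-0.53), though thinned cells of that type gave 108 and 57.9 CPM. Ciliated-like cells had 105 CPM in 72 mutant cells and 206 CPM in 43 control cells, which held 27.1% of the Cdkn1a UMIs of the control epithelium. Cdkn1b was higher in AT1-like cells (179 and 93.4 CPM in mutant and control, 0.87) and stood level in AT2-like cells (55.9 and 59.5 CPM, -0.08). Mycn was at 1.63 and 17.7 CPM in mutant and control AT2-like cells (-1.25).

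**Figure D4:**
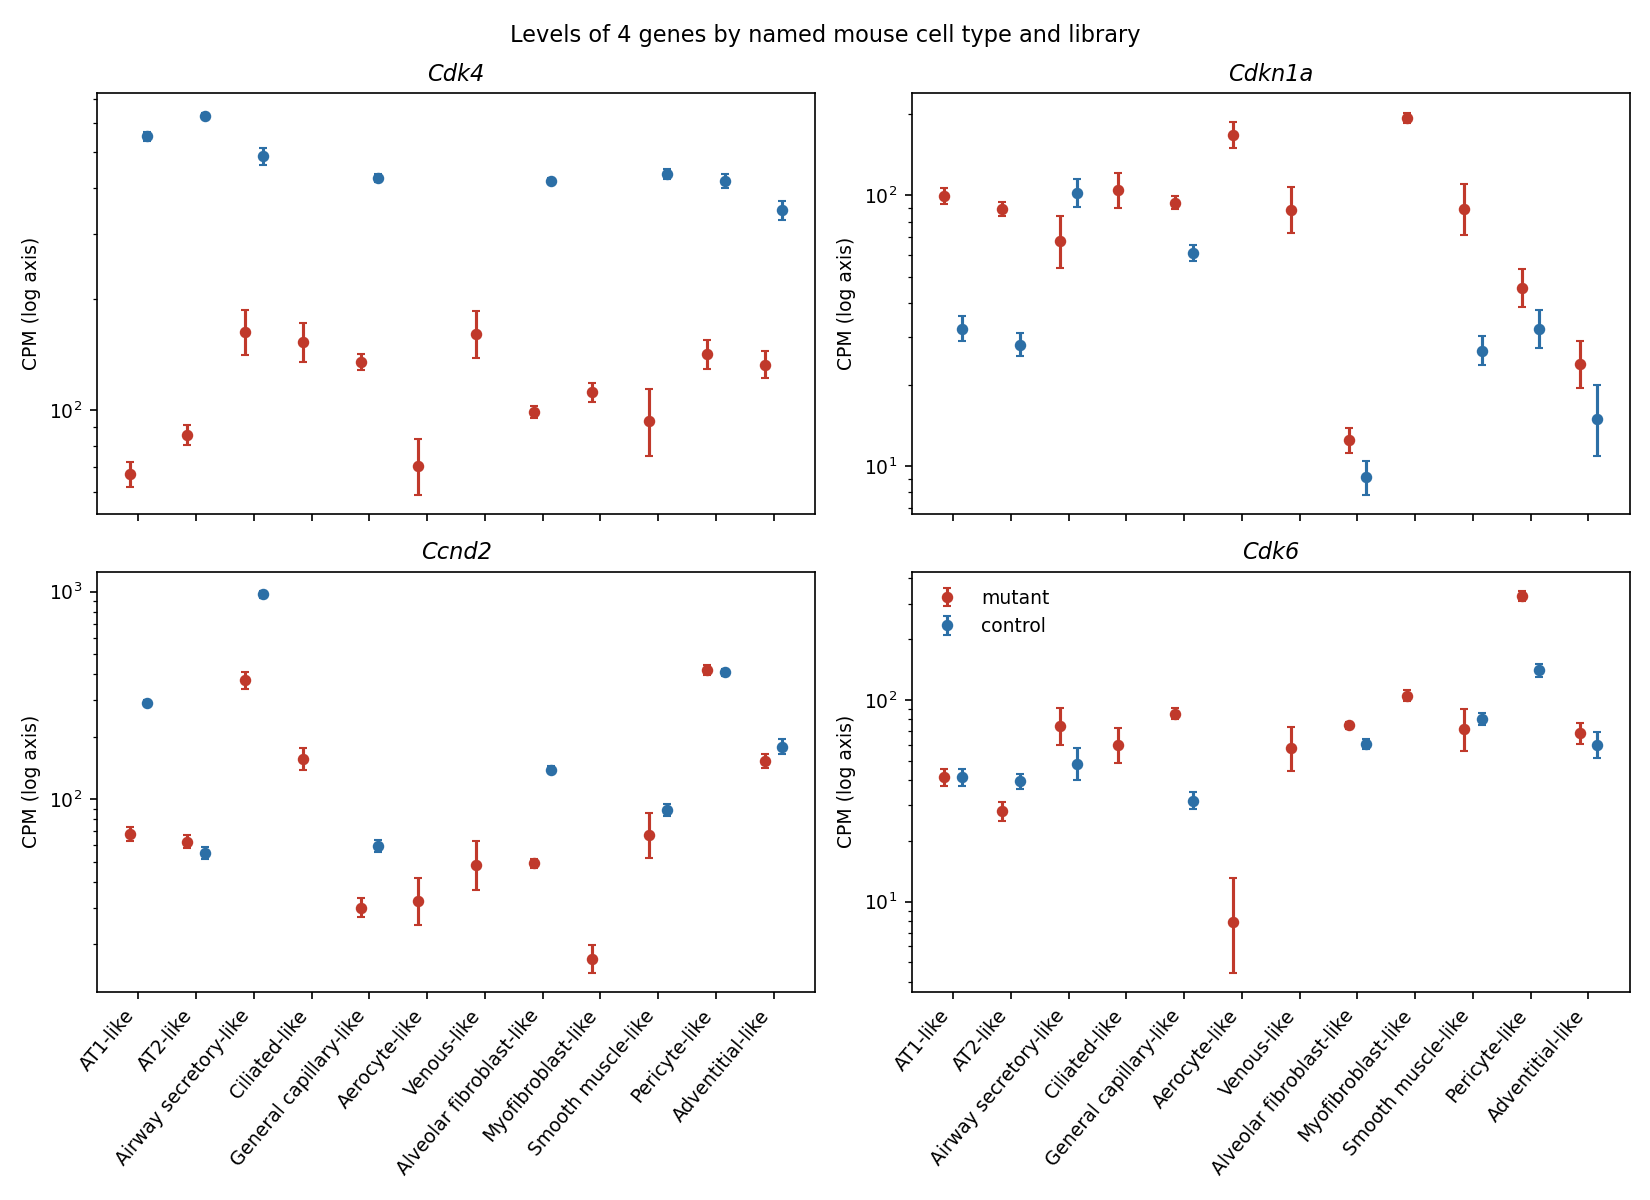
CPM on a log axis of Cdk4, Cdkn1a, Ccnd2 and Cdk6 in each named mouse type with at least 50 cells; red points are the mutant and blue the control library, whiskers exact 95% Poisson intervals, and a missing point means fewer than 50 cells. Every pair of Cdk4 points has the mutant below the control, Cdkn1a peaks in mutant Myofibroblast-like cells at 193 CPM, and Ccnd2 and Cdk6 are high in Pericyte-like cells.

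The genes were also compared within each library, between cells with and cells without a UMI of Mki67 or Top2a. Cdkn2c reached the largest differences of the 10 in this split. In the mutant library it had 3.79 CPM in epithelial cells with and 1.40 CPM in those without such a UMI, 49.9 CPM in endothelial cells with and 2.97 CPM in those without such a UMI (2.21, interval 2.01 to 2.38), and 30.7 and 13.8 CPM in mesenchymal cells with and without (0.77). In the control library it had 25.3 and 5.37 CPM in endothelial (1.20), 42.5 and 11.1 CPM in mesenchymal (1.31) and 12.7 and 2.24 CPM in epithelial cells with and without (0.89), and control rat mesenchymal cells had 44.9 and 3.93 CPM (1.98). It was the one gene of the 10 past 2-fold in mutant endothelial, control endothelial and control mesenchymal mouse cells, where 3.84%, 1.87% and 2.97% of all genes tested were at least 2-fold higher, and in control rat mesenchymal cells, where 3.99% were. The shares at least 2-fold lower were 0.251% (mutant endothelial), 0.367% (control endothelial), 0.0327% (control mesenchymal) and 1.44% (rat mesenchymal). In both mouse epithelial sets and in mutant mesenchymal cells 0 genes passed, where 7.06% (mutant epithelial), 2.17% (control epithelial) and 1.78% (mutant mesenchymal) of all genes were higher and 0.0108%, 0.145% and 0.0106% lower, in the same order. Thinned to 2000 UMIs, Cdkn2c passed 2-fold in control epithelial cells, with 32.1 CPM in those with (27 UMIs) and 2.56 CPM in those without a UMI of the pair (3 UMIs, 1.74). In mutant epithelial cells it then stood at 1.07, on 2 and 8 UMIs, with an interval of -0.061 to 2.45.

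Cdk4 stayed within 2-fold in this split. It had 117 CPM in mutant epithelial cells with and 83.3 CPM in those without a UMI of the pair (0.44), and 587 and 509 CPM in control epithelial cells with and without (0.20). In mutant endothelial cells it had 163 and 111 CPM (0.52). Thinned, Cdk4 stood at 0.69 in mutant and -0.07 in control epithelial cells. As counted, Cdkn1a ranged from -0.11 in control rat epithelial to 0.74 in control mouse epithelial cells. Of control Ciliated-like cells, with 206 CPM of Cdkn1a, 79.1% carried a UMI of the pair. Of mutant Ciliated-like cells, with 153 CPM of Cdk4, 65.3% did. Their part in the epithelial values of this split was not tested. Ccnd2 was lower in control epithelial cells with a UMI of the pair than without (251 and 329 CPM, -0.38), and in control rat epithelial cells it was past 2-fold lower (36.2 and 92.5 CPM, -1.15), where 0.493% of all genes were lower and 3.2% higher. The 2 sets differed in cell type. The pair was found in 74.3% of control rat AT2-like and 38.5% of unnamed rat epithelial cells. In the control mouse epithelium it was found in 82.0% of AT2-like cells (Ccnd2 at 55.0 CPM). Airway secretory-like cells there gave 57.3% (Ccnd2 at 972 CPM). The part of cell type in these differences was not tested. Cells with a UMI were deeper, with a median of 17105 UMIs in mutant epithelial cells with and 10980 in those without, and 18021.5 and 4817 in control epithelial cells with and without. When the libraries were compared over cells with no UMI of the pair alone, Cdk4 stayed lower in the mutant library: 83.3 and 509 CPM in mutant and control epithelial cells (-2.48), 111 and 377 CPM in endothelial cells (-1.68) and 104 and 368 CPM in mesenchymal cells (-1.73). Cdkn1a was then at 88.5 and 25.2 CPM in mutant and control epithelial cells (1.48), 94.5 and 41.9 CPM in endothelial cells (1.01) and 51.2 and 17.8 CPM in mesenchymal cells (1.14). The mesenchymal value still includes Myofibroblast-like cells, which numbered 1012 in the mutant and 1 in the control library before this split. The size of the pooled difference depended on them, as described above. Ccnd1 and Ccnd2 were at -1.90 and -1.89 in epithelial cells. Cdkn2c was at 0.17 in mesenchymal cells, against -0.56 over all mesenchymal cells. A cell with no UMI of the pair can still be cycling.

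**Figure D5:**
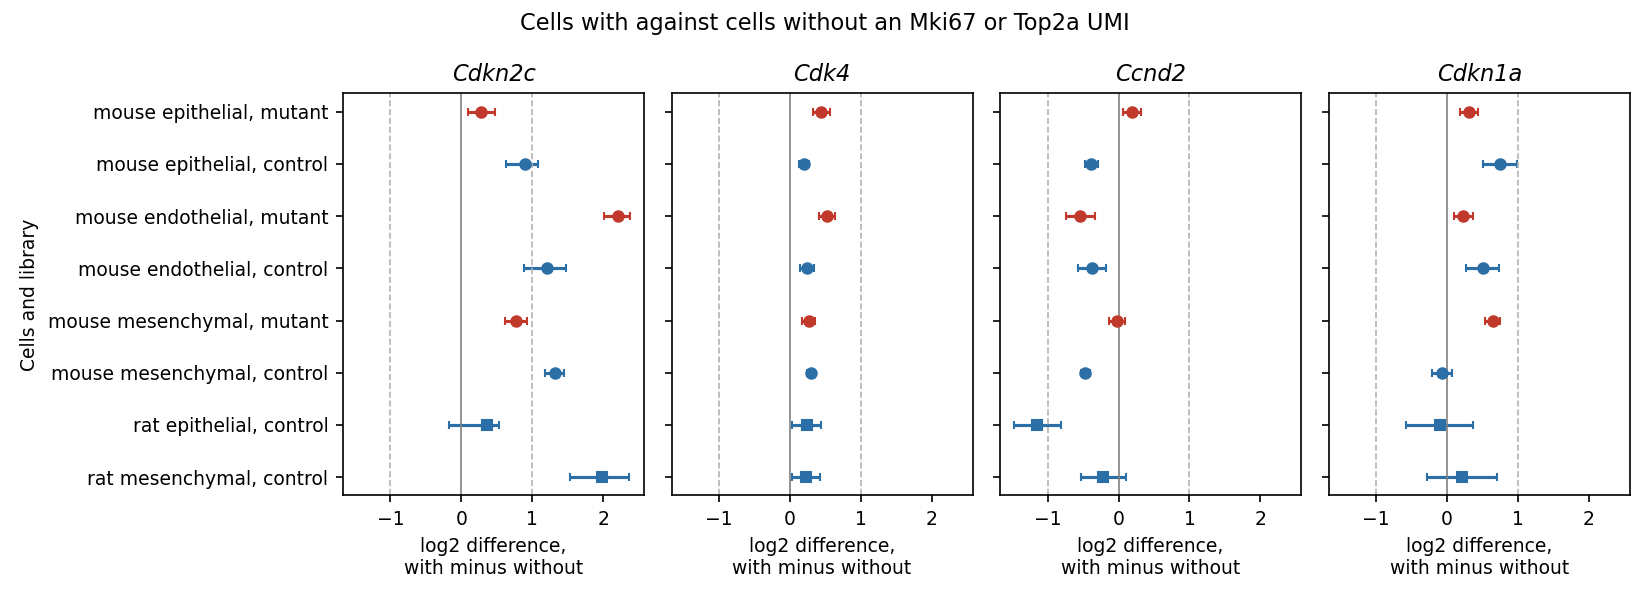
Log2 difference of Cdkn2c, Cdk4, Ccnd2 and Cdkn1a between cells with and cells without a UMI of Mki67 or Top2a, 10 CPM added, by species, class and library; circles are mouse, squares rat, red mutant, blue control, bars 95% counting intervals and dashed lines 2-fold. Cdkn2c reaches farthest right, 2.21 in mutant endothelial cells, while the Cdk4 points stay between 0 and 1.

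In the control library rat and mouse cells came from the same suspension, and the same genes were set side by side in both species. In epithelial cells 2 of 10 were at least 2-fold higher in rat (Myc and Mycn) and 3 lower (Ccnd2, Ccnd3 and Cdk4), where 7.64% and 15.5% of 8612 shared symbols passed in those directions. Myc had 76.5 CPM in 233 rat cells and 11.2 CPM in 1200 mouse cells (2.03), Mycn 42.7 CPM in rat and 13.4 CPM in mouse cells (1.17), and Ccnd2 42.8 CPM in rat and 258 CPM in mouse cells (-2.34). In AT2-like cells alone, Myc had 76.8 CPM in 136 rat and 8.88 CPM in 267 mouse cells, and Ccnd2 13.2 CPM in rat and 55.0 CPM in mouse cells. In mesenchymal cells 1 of 9 measured genes was higher in rat, Ccnd1 (80.2 CPM in rat and 25.2 CPM in mouse, 1.36), and 2 were lower, Ccnd2 (72.9 and 163 CPM in rat and mouse, -1.06) and Cdk6 (21.2 and 75.6 CPM, -1.46), where 7.08% and 15% of 8682 symbols passed. Rat Ccnd1 had 166 CPM in epithelial cells beside 128 CPM in mouse cells, and rat Cdkn1a 24.6 CPM beside 46.8 CPM. Rat Cdkn1b was at 101 CPM beside 73.4 CPM in mouse epithelial cells, and at 141 beside 71.0 CPM in mesenchymal cells. The features come from different genomes and annotations, and how well each catches the 3′ end of a gene was not tested.

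Rat cells of the mutant library had no epithelial cells, and 63 of its 73 rat mesenchymal cells were Pericyte-like. Against 86 control rat Pericyte-like cells, Cdk4 had 18.1 CPM in mutant (12 UMIs) and 181 CPM in control cells (154 UMIs), a difference of -2.77 (interval -3.35 to -2.16). Ccnd1 had 21.1 CPM in mutant and 67.0 CPM in control cells (-1.31) and Myc 22.6 and 55.2 CPM (-1.001). Ccnd2 was higher, with 220 CPM in mutant and 99.9 CPM in control cells (1.06), and so was Cdk6, with 134 and 38.8 CPM (1.56). These made 2 of 9 genes higher and 3 lower, where 15.9% and 4.61% of 8749 rat genes were. Cdkn1a had 31.6 and 24.7 CPM in mutant and control, and the pair of Mki67 and Top2a was found in 36.5% of mutant and 59.3% of control cells, or 27.4% and 34.9% of them after thinning. Rat differences were not corrected for intron length, as no rat annotation was used here. A rat Cdk4 UMI was carried by 13.9% of the 79 mutant rat cells and 79.7% of the 725 control rat cells, and a mouse Cdk4 UMI by 3.80% and 17.4% of these mutant and control rat cells.

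Immune cells were few, 89 mutant and 166 control mouse cells. Of 9 measured genes 0 were higher and 2 lower past 2-fold (Ccnd1 and Cdk4), where 16.3% and 4.93% of 9834 genes passed, and after intron adjustment 0 were higher and 1 lower (Ccnd1), where 7.68% and 4.02% passed. Ccnd1 had 0 UMIs in mutant and 165 UMIs (73.7 CPM) in control immune cells, so it was at least 27.8-fold lower in the mutant library when 3 counts stand for its 0. Cdkn1a had 175 CPM in mutant and 304 CPM in control immune cells (-0.76), opposite to the 3 large classes, and Cdk4 had 73.4 and 208 CPM (-1.39). The control cells were mostly of a cluster led by the neutrophil genes S100a8 and S100a9, with the macrophage genes C1qa and C1qb among its leading genes (146 of them, with 43 mutant cells), and the rest of a cluster led by B cell and mast cell genes (20 control and 46 mutant cells). The makeup and the difference cannot be told apart. In the few mesothelial cells Cdkn1a was also lower, at 60.6 CPM in 26 mutant and 98.8 CPM in 31 control cells.

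The other genes of the G1 pathway were read from lists, beside medians over all genes tested of -0.17 in epithelial, -0.09 in endothelial, -0.10 in mesenchymal cells. Of 10 other cyclins, kinases and cofactors of G1 and S entry, 0 were at least 2-fold higher in any of the 3 classes, and the lower ones numbered 5 (epithelial), 1 (endothelial) and 6 (mesenchymal), with medians of -1.03, -0.59 and -1.13. Over all genes tested, 11.9%, 3.81% and 5.89% were at least 2-fold lower in these classes and 12.3%, 10.7% and 10.9% higher, and after intron adjustment 6.83%, 2.28% and 4.28% were lower and 9%, 4.59% and 5.89% higher. These shares stand behind each list count that follows. The adjusted counts of lower genes among these 10 were 3, 1 and 3. The lowest was Cks1b, a cofactor that helps destroy Cdkn1b, at 14.5 CPM in mutant and 302 CPM in control epithelial cells (-3.67). Ccne1 and Ccne2, which activate Cdk2 at the start of S phase, were at -1.14 and -0.83 in epithelial cells. Of 13 pocket proteins and E2F factors, 0 were higher and 3 lower in epithelial cells (median -0.77), or 0 and 4 after adjustment, with E2f1 at 10.1 CPM in mutant and 40.2 CPM in control cells. Rb1, the retinoblastoma gene, was on the higher side, with 46.4 and 11.01 CPM in mutant and control mesenchymal cells (1.42), but has 136 kb of intron and stood at 0.67 after adjustment.

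Of the other inhibitors, 7 were measured in epithelial cells, where 1 was higher and 3 lower (median -0.93), or 2 higher and 3 lower after adjustment (median -0.31). Cdkn2b (p15), which blocks Cdk4 and Cdk6, had 117 CPM in mutant and 19.99 CPM in control epithelial cells (2.09) and stayed under 10 CPM in endothelial and mesenchymal cells. Cdkn1c (p57), an inhibitor of the embryo, had 345 CPM in mutant and 1455 CPM in control epithelial cells (-2.04). In mesenchymal cells Btg2, an antiproliferative gene and p53 target, was the highest, with 1975 and 486 CPM in mutant and control (2.001). Of 7 measured p53 targets in epithelial cells, 0 were higher and 2 lower, Bax (-1.31) and Phlda3 (-1.17), with a median of -0.78, and Mdm2 stood at 0.52 and Trp53inp1 at 0.62. After adjustment 1 was higher, Trp53inp1 (1.06), and 0 lower, with Bax at -0.69 and Phlda3 at -0.54. In mesenchymal cells 0 of 7 passed in either direction on either scale. Cdkn1a, also a p53 target, was at 1.32 there and at 0.10 without Myofibroblast-like cells. That last value is over types of unequal shares in the mutant and control libraries.

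The list of Myc targets held mostly genes of ribosome making. It also held Srm and Odc1 of polyamine synthesis and Cad of pyrimidine synthesis. Of its 11 measured genes, 0 were higher. Those at least 2-fold lower numbered 10 (epithelial), 7 (endothelial) and 6 (mesenchymal), with medians of -1.50, -1.23 and -1.04. After intron adjustment the counts of lower genes were 5, 3 and 1. Npm1, the nucleolar protein nucleophosmin, had 646 CPM in mutant and 1905 CPM in control epithelial cells (-1.54). The partners and antagonists of Myc had medians of 0.10, -0.02 and -0.10. Those past 2-fold numbered 1, 0 and 0 higher and 2, 0 and 1 lower. After adjustment these counts were 0, 1 and 0 higher and 1, 0 and 1 lower. Mxd3 was the lowest, at -1.58 in epithelial and -2.01 in mesenchymal cells, and Mlxip the highest, at 1.09 in epithelial cells. Of 13 S phase genes, the lower ones numbered 13 (epithelial), 9 (endothelial) and 12 (mesenchymal), and of 15 genes of G2 and M phases 15, 2 and 15. After adjustment these counts were 12, 3 and 11 for S phase and 15, 0 and 15 for G2 and M phases, so most endothelial calls were lost. Endothelial medians of these lists were -1.08 for S phase and -0.70 for G2 and M phases, where epithelial ones were -2.10 and -2.85.

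For each gene with enough UMIs, the 3 genes whose CPM followed it most closely across named mouse types were taken by the mean Spearman correlation over 13 mutant and 10 control types, out of 5258 genes. Ccnd1 was closest to Bik (0.89), Cracr2b and Acer2, and Cdk4 to Rrp1 (0.85) and Snrpa. Cdkn1a was closest to Arf3 (0.89), Ccnd2 to Kcnk2 (0.81), Cdk6 to Pag1 (0.85) and Cdkn1b to Sike1 (0.89). Myc, Mycn and Cdkn2c did not reach the minimum level for this comparison. These types share libraries and depth, and a likeness over so few points is a description only.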

How the data were processed

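Deposited values were counts: whole-number UMIs per gene and barcode, which the authors made with Cell Ranger 7.0.1 (mutant) and 6.0.1 (control), per the file headers, on mm10 and rn6 features; Seurat 4.3 is named per the submitters' processing notes, and no output of it was used. From version 7 on, intronic reads are counted unless this is switched off, and no label states the setting used. Barcodes with at least 500 genes and at most 20% mitochondrial UMIs were kept, called mouse at 90% or more mouse UMIs and rat at 10% or less, and removed at a Scrublet score of 0.2 or more (356 mutant and 154 control mouse cells; no rat cell was removed). Cells were clustered in Scanpy 1.11.5 with leidenalg 0.10.2 (30 components, 15 neighbours, resolution 1 for mouse and 2 for rat, seed 1), without cell cycle genes, the 10 genes and the pathway genes. Barcodes with over 20% globin UMIs were set apart as red cells. Clusters were named from marker lists (mean log2 fold of at least 0.25, 3 markers or more), and the epithelium of each library was sub-clustered. UMIs were summed per class and library. Genes with at least 10 CPM in either library were tested for a 2-fold difference; with 1 library per group no p-value was computed. Intervals are exact Poisson, exact Clopper-Pearson, or a square-and-add of Poisson bounds for log2 differences. The steps were tested on simulated data. The genes and lists were chosen with earlier results of these data known. Named were all 10 genes, Mki67 and Top2a, list genes with the largest or smallest difference or given for their role, and for likeness the 3 closest genes among those with at least 50 CPM in at least 1 type of each library. Cells of a library are not replicates. Some of the closest genes are not reported here.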

Additional observations from a re-analysis of the deposited data

Results flagged for a closer look

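Cdkn1a differed in direction between classes. Its log2 difference, mutant minus control, came to 0.86 (epithelial), 0.69 (endothelial) and 1.32 (mesenchymal mouse cells), and -0.76 in immune mouse cells. The difference between classes was not tested, as there was 1 library per group. Immune cells numbered 89 in the mutant and 166 in the control library, and the cluster led by neutrophil and macrophage genes held 43 mutant and 146 control cells. Mesothelial mouse cells, 26 mutant and 31 control, had 60.6 CPM in the mutant and 98.8 CPM in the control library.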

How the results depend on the processing

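No paired analysis was possible because each group had 1 library, and no replicate could be left out. In epithelial cells the count of genes at least 2-fold lower was 6 with 1 CPM added and 5 with totals over genes of at most 10 kb of intron. The count of higher genes there was 2 relative to genes of like intron length, 1 with the short-intron totals and 1 in cells with no UMI of Mki67 or Top2a. In endothelial cells the lower count was 1 relative to intron length and 1 at a minimum of 50 CPM; the higher count was 0 after thinning, 0 at clustering resolution 0.5 and 2 in cells with no UMI of the pair. In mesenchymal cells the lower count was 1 relative to intron length, at 50 CPM, at 1000 genes per cell, with no doublets removed, and without Myofibroblast-like cells, where the higher count was 0. The last setting, cells of a named type, and the thinned and 2-UMI splits of cells by the pair were chosen after seeing the data.

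Shares of cells with a UMI of the pair were 3.48% in mutant and 49.8% in control epithelial cells when 2 UMIs were required, 23.3% and 39.1% in mutant and control endothelial cells, and 5.52% and 32.9% in mutant and control mesenchymal cells. Thinned, they were 3.40% and 41.8%, 22.6% and 46.3%, and 5.25% and 31.8% in mutant and control cells of these classes. At 1000 genes per cell the control shares were 68.1% in epithelial and 61.7% in endothelial cells, and at resolution 0.5 the mutant endothelial share was 30.8%. The mutant share stayed the lower one in each of these pairs. Between cells with and without the pair, 1 gene was higher in mutant and 1 in control epithelial cells after thinning, and 1 in mutant mesenchymal cells at 2 UMIs. With species limits of 95% and 5%, which left 59 rat and 4097 mouse mesenchymal cells, 3 genes were higher in rat than mouse mesenchymal cells. Of 485 single-gene values, 368 stayed within their interval, 112 moved and 5 changed sign: Cdkn1b in endothelial cells at resolution 0.5 (-0.12), Ccnd3 (-0.077), Cdk6 (-0.53) and Myc (0.14) in mesenchymal cells relative to intron length, and Cdkn2c in mesenchymal cells with no UMI of the pair (0.17). Apart from the settings that use fewer genes or cells by construction, the cause was not tested.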
